A study of Mus musculus with 9 samples.

Results

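Amyloid beta chaperones and transport receptors are the proteins that bind the amyloid beta peptide outside cells or carry it, or its precursor, across and within them. The group was defined by gene name, without use of measured values, as Apoe, Clu, Cst3, Lrp1, Abca1, Sorl1, Picalm, Itm2b and Itm2c, with every probe set that carries the gene as its single platform symbol and a score on all arrays. Of these 9 genes, 8 were measured, each by 1 probe set, among 16429 genes on the probe sets tested. Picalm was not analysed here because no probe set carried it as a single symbol. All 8 probe sets held a score on all 9 arrays, so the filter removed none of them.

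The measurements came from whole hippocampus of male SAMP10/TaSlc mice, an inbred senescence-accelerated strain with early brain ageing, for which the labels name no transgene. The 3 arrays of the control diet carried RNA from mice on the basal chow CE-2. The 3 arrays each of the yellow soybean and green soybean diets carried RNA from mice given that chow with 3.0% extract of yellow or of green soybean, from 1 to 12 months of age. The protocol text attached to every array, controls included, mentions soybean extract, so the diet was taken from each array's title and source label. The protocols describe 5 groups of 12 mice, 6 to a cage, of which 3 diets are analysed here. The titles read SMP30 where the strain label reads SAMP10. No label says which mouse or cage an array came from or whether RNA was pooled, so the p-values below measure the spread between arrays, which could be partly technical.

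Amyloid beta is released from the amyloid precursor protein and leaves brain tissue by degradation, by binding to carrier proteins, and by transport through receptors of endothelium, glia and neurons. In brain, apolipoprotein E and clusterin are secreted largely by astrocytes and travel in lipoprotein particles, and cystatin C is a secreted protease inhibitor. Each of them binds the peptide. LRP1 takes up apolipoproteins and amyloid beta, ABCA1 loads apolipoprotein E with lipid, SORL1 and PICALM route the precursor and the peptide through endosomes, and the BRICHOS-domain proteins ITM2B and ITM2C bind the precursor and limit its cleavage.

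Expression was given as the authors' normalized score, a z-type value on a log scale whose base is not given in the sources used here. For orientation, the 5th and 95th percentiles of the scores on an array lay between -0.56 and -0.463 and between 1.35 and 1.45, so the bulk of an array spanned about that range. Differences are in score units. Scores of different genes come from different probes, so the members' levels are not compared with each other. The authors had shifted the probe sets of Clu and Sorl1 so that their control mean was 0, and for these genes only differences, not levels, can be read.

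Green soybean replicate 3 correlated less with the other 8 arrays, at a mean of 0.958 against 0.977 to 0.981 for the rest, and results that rest on it are given with and without it. Control replicate 1, yellow soybean replicate 2 and green soybean replicate 1 differed from the others in the level of their brightest probe sets, as described with Apoe and Cst3. The labelled tissue was checked against the hippocampal genes Prox1, Wfs1, Zbtb20, Neurod2, Neurod6, Fibcd1, C1ql2 and Dsp. Of these, 8 of 8 had a mean score over the 9 arrays above the median of all uncentred scores, as did 8 of 8 uncentred neuronal markers. So did 10 of 10 astrocyte and 9 of 9 oligodendrocyte markers, so this cut does not set hippocampus apart from other brain tissue. In whole tissue, fewer cells of a type and less RNA per cell cannot be told apart.

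Promoter sequences of 8 of the 9 genes were available from RefSeq on build GRCm38.p6, as windows from 250 bases before to 50 bases after an annotated start. Clu was the gene without a window, so these 8 include Picalm. Both strands were searched for the letters of 4 motifs, and a gene was counted if any of its windows held a match. The GC box, spelled GGGCGG, lay in windows of 7 of the 8 genes, against 38.2% of all genes with a window. The E-box, spelled CACGTG on either strand, lay in 3 (Abca1, Sorl1 and Picalm) against 8.09%. The TATA box, searched as TATAAA, lay in 2 (Abca1 and Apoe) against 15.7%, for Apoe only in the window of the second of 3 annotated starts. The CAAT box, searched as CCAAT, lay in 0 against 41.1%. These matches describe the letters in the windows and nothing about binding. The windows of Apoe and Cst3 are shown because their scores moved together across arrays, and those of Abca1 and Sorl1 because they share the E-box. Capitals mark the TATA box in Apoe, the GC box in Cst3 and the E-box in Abca1 and Sorl1, and all 4 lie on the minus strand.
Apoe chr7:19698572-19698871, the second of 3 annotated starts: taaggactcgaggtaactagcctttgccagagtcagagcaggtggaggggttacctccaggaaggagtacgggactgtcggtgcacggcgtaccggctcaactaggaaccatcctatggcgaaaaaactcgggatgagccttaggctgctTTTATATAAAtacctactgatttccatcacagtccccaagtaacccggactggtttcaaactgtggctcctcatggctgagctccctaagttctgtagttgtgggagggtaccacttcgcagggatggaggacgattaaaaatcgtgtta
Cst3 chr2:148875463-148875762: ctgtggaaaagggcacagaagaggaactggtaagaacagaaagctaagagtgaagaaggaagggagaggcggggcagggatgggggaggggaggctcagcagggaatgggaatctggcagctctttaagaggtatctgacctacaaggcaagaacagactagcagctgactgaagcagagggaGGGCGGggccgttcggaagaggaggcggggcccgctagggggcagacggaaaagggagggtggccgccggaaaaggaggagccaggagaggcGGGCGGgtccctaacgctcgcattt
Abca1 chr4:53159846-53160145: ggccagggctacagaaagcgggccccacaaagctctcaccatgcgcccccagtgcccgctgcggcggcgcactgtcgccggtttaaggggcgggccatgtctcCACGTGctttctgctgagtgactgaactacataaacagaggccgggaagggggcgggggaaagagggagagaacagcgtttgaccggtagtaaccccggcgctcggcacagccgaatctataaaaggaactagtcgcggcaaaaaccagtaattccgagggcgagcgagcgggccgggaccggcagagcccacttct
Sorl1 chr9:42124248-42124547, the first of 2 annotated starts: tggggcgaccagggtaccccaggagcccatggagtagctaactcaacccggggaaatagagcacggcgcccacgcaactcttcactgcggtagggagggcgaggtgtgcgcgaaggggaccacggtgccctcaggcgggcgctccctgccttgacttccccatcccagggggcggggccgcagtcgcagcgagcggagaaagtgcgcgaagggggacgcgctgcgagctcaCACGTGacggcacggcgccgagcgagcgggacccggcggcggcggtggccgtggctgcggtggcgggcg
The 2 Apoe matches overlap, on opposite strands, and begin at -100 and -96 from the start. The E-box begins at -147 from the start of Abca1 and at -19 from that of Sorl1. The scores of Abca1 and Sorl1 had Pearson r = -0.225 and Spearman rho = -0.250 over 9 arrays (exact permutation p = 0.559 and 0.521). Their r was -0.823 without green soybean replicate 3 but 0.330 without both control replicate 1 and yellow soybean replicate 2, so its sign depended on which arrays were included. The GC boxes of Cst3 begin at -67 and 26 from its start.

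Among the secreted chaperones, Apoe scored 2.512, 2.531 and 2.528 on the control arrays, 2.494, 2.411 and 2.476 with yellow soybean and 2.429, 2.509 and 2.512 with green soybean. The 3 yellow arrays lay below the 3 controls, whereas green soybean replicate 3 lay just above the lowest control and replicate 1 lowest of the green arrays. The group means were 2.52 ± 0.0104 (SD, n = 3) in controls, 2.46 ± 0.0437 with yellow and 2.48 ± 0.0471 with green soybean. The differences from control were -0.0634 ± 0.0494 (SE) for yellow and -0.0404 ± 0.0494 for green soybean, and neither passed the test (limma adjusted p = 1.00 and 0.824). Without green soybean replicate 1 the green difference was -0.0132. Astrocyte markers, from the main source of Apoe and Clu, averaged 1.30 to 1.32 per array over 10 genes in controls, 1.25 to 1.33 with yellow and 1.24 to 1.35 with green soybean, and their part in these scores was not tested.

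Clu, which encodes clusterin (apolipoprotein J), scored 0.0226, 0.0242 and -0.0468 in controls, 0.102, -0.117 and -0.120 with yellow soybean and -0.0432, -0.0730 and -0.172 with green soybean. Yellow soybean replicate 1 was the highest of all arrays and green soybean replicate 3 the lowest, and the lowest control lay just below the highest green array. The green mean differed from control by -0.0960 ± 0.0670 and the yellow mean by -0.0453 ± 0.0670, neither past the test (limma adjusted p = 0.666 and 1.00). Without green soybean replicate 3 the green difference was -0.0581, and the yellow difference ran from -0.119 without yellow soybean replicate 1 to -0.00787 without yellow soybean replicate 3.

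Cst3, encoding cystatin C, scored 3.021, 3.111 and 3.110 in controls, 3.061, 2.980 and 3.015 with yellow soybean and 2.803, 3.060 and 3.070 with green soybean. A single array, green soybean replicate 1, stood far below the other 8. The green mean was 2.98 ± 0.151 against 3.08 ± 0.0514 in controls, a difference of -0.103 ± 0.0709 (limma adjusted p = 0.663), which became -0.0155 without that array. The highest score of any probe set was also lower on that array, at 3.02 against 3.27 to 3.34 on the other 8. By rank from the highest score, Cst3 was 13 of 34760 probe sets on that array and 15 to 25 on the others. So its score was low there but its rank was not. After quantile normalization Cst3 scored 3.06 on green soybean replicate 1, and the green difference was -0.00864. The part of the array's level in the Cst3 score was not tested. The yellow difference was -0.0620 ± 0.0709.

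**Figure D1:**
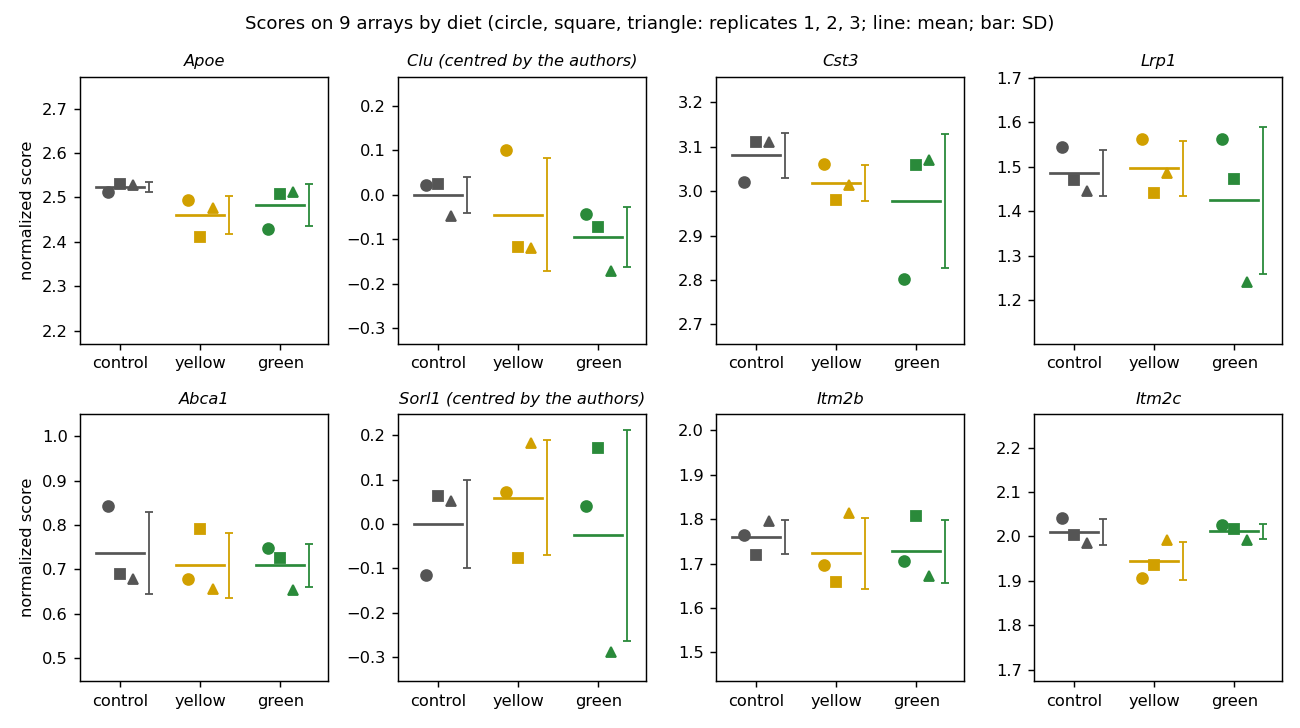
Normalized scores (vertical axis, score units, same span of 0.6 units in each panel) of the 8 measured genes on the 9 arrays by diet, with the mean as a line and the SD as a bar. The yellow arrays lie below the controls for Apoe, green replicate 1 is low for Cst3 and green replicate 3 is low for Lrp1 and Sorl1.

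Of the uptake receptor and the lipid exporter, Lrp1, the endocytic receptor for apolipoprotein E and amyloid beta, scored 1.545, 1.469 and 1.445 in controls, 1.563, 1.441 and 1.485 with yellow soybean and 1.562, 1.472 and 1.241 with green soybean. Green soybean replicate 3 was the lowest array by far, and the other 8 arrays overlapped between the diets. The green difference of -0.0613 ± 0.0761 (limma adjusted p = 0.827) turned to 0.0308 without that array, and the yellow difference was 0.0101 ± 0.0761.

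Abca1, the cholesterol exporter that lipidates apolipoprotein E, scored 0.843, 0.689 and 0.679 in controls, 0.679, 0.792 and 0.655 with yellow soybean and 0.748, 0.725 and 0.655 with green soybean. The groups overlapped throughout, control replicate 1 being the highest array. Both diets averaged 0.709 against 0.737 ± 0.0921 in controls, with differences of -0.0277 for green and -0.0280 for yellow soybean (SE 0.0616 each). Without control replicate 1 they became 0.0254 and 0.0251.

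Sorl1, the VPS10-domain receptor that sorts the amyloid precursor away from endosomal cleavage, varied most over the arrays, with a range of 0.471. It scored -0.115, 0.0635 and 0.0514 in controls, 0.0722, -0.0761 and 0.182 with yellow soybean and 0.0417, 0.172 and -0.289 with green soybean. Each diet held arrays on both sides of 0, and the lowest was green soybean replicate 3. The green difference was -0.0250 ± 0.106, or 0.107 without that array, and the yellow difference 0.0594 ± 0.106 (limma adjusted p = 0.956 and 1.00).

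Itm2b, whose human counterpart is mutated in familial British and Danish dementia, scored 1.765, 1.718 and 1.795 in controls, 1.697, 1.659 and 1.813 with yellow soybean and 1.706, 1.808 and 1.672 with green soybean. Yellow and green soybean each had 1 array above all controls and 2 below. The differences from control were -0.0311 for green and -0.0366 for yellow soybean (SE 0.0586 each). The green difference ran from -0.0708 without green soybean replicate 2 to -0.00265 without green soybean replicate 3, and the yellow one from -0.0817 without yellow soybean replicate 3 to -0.00454 without yellow soybean replicate 2.

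Itm2c, its brain-enriched relative, scored 2.042, 2.003 and 1.985 in controls, 1.907, 1.936 and 1.992 with yellow soybean and 2.025, 2.016 and 1.993 with green soybean. Here the yellow arrays lay below all green arrays and, but for replicate 3, below all controls. The mean was 1.94 ± 0.0431 with yellow, 2.01 ± 0.0168 with green soybean and 2.01 ± 0.0292 in controls. Green exceeded yellow soybean by 0.0664 ± 0.0480, with a 95% interval from -0.0383 to 0.171 (limma adjusted p = 0.793).

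The comparison of green soybean with control addresses the diet that the series title links to less amyloid beta accumulation. With green soybean, Apoe, Clu, Cst3, Lrp1, Abca1, Sorl1 and Itm2b had lower means than controls and Itm2c a nearly equal one, with differences from -0.103 (Cst3) to 0.00139 (Itm2c) and a median of -0.0357. None of the 8 passed limma's test, the smallest adjusted p being 0.663, as none of the 21959 probe sets did (0.00% called), and 0 of 8 had an unadjusted p below 0.05 against 9.72% of all probe sets. The median over all probe sets was 0.0296, and 35.0% of them were lower. In no member did the green arrays lie wholly above (13.2% of all probe sets) or below (2.67%) the controls. Lrp1 and Sorl1 were higher, not lower, without green soybean replicate 3, and Abca1 was higher without control replicate 1. The 95% intervals reached 0.105 to 0.232 to either side of each estimate. The widest reached from -0.257 to 0.207, for Sorl1, and the interval of Cst3 from -0.257 to 0.0519.

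Yellow soybean was set against the same control arrays, so the 2 comparisons with control share them. Apoe, Clu, Cst3, Abca1, Itm2b and Itm2c had lower means with yellow soybean, and Lrp1 and Sorl1 higher ones, from -0.0650 (Itm2c) to 0.0594 (Sorl1), with a median of -0.0410 against 0.0140 over all probe sets. None passed (limma adjusted p = 1.00 for each, 0.00% of all probe sets called), and 0 of 8 had an unadjusted p below 0.05 against 3.04%. Apoe was the 1 member whose yellow arrays all lay below the controls, a pattern found in 2.65% of all probe sets, with 6.65% wholly above. Its 95% interval ran from -0.171 to 0.0445. The differences of Apoe, Clu, Cst3, Itm2b and Itm2c kept their sign without any single array. That of Apoe ran from -0.0801 to -0.0387 and that of Itm2c from -0.0885 to -0.0462.

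Between the extracts, Itm2c and, by smaller margins, Apoe, Itm2b and Abca1 had higher means with green than with yellow soybean, and Sorl1, Lrp1, Clu and Cst3 lower ones. The differences ran from -0.0844 (Sorl1) to 0.0664 (Itm2c), with a median of -0.0202 against 0.0147 over all probe sets. None passed limma's test (0.00% of all called, smallest adjusted p among members 0.793), and 0 of 8 had an unadjusted p below 0.05 against 7.10%. Itm2c was the 1 member with groups that did not overlap, its green arrays lying above the yellow ones, as in 7.63% of all probe sets, while 2.92% lay below. Of the differences, that of Itm2c alone kept its sign whichever array was left out, from 0.0476 to 0.0899. The F-test over the 3 diets likewise called 0 members and 0.00% of all probe sets, with 1550 probe sets and 0 members at an unadjusted p below 0.05.

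**Figure D2:**
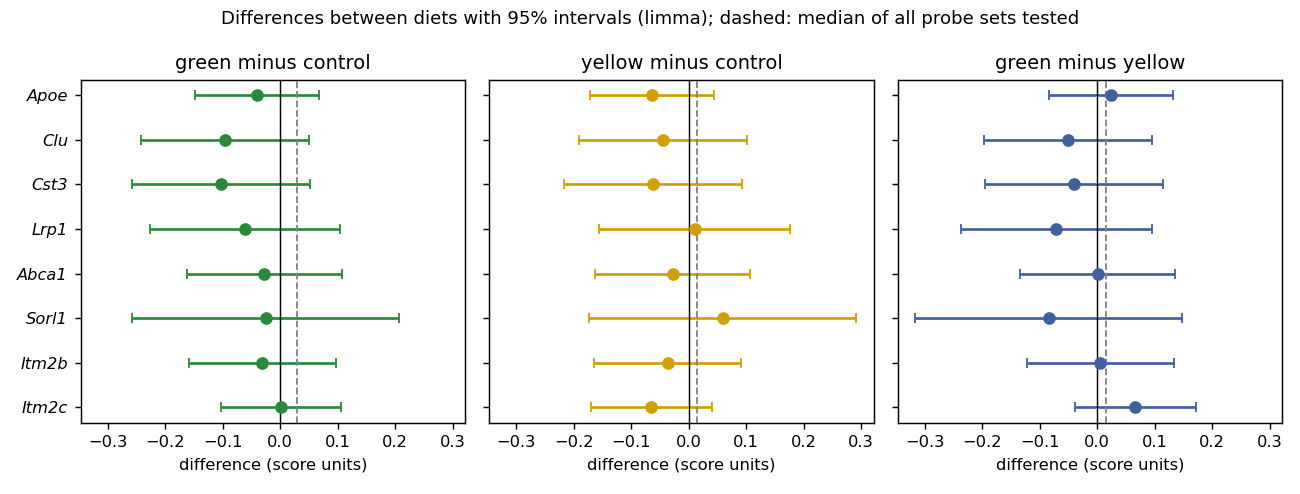
Differences between diets (horizontal axis, score units) with 95% limma intervals for the 8 genes in the 3 comparisons. Every interval includes 0, and the dashed line marks the median of all probe sets tested, 0.0296, 0.0140 and 0.0147 from left to right.

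**Figure D3:**
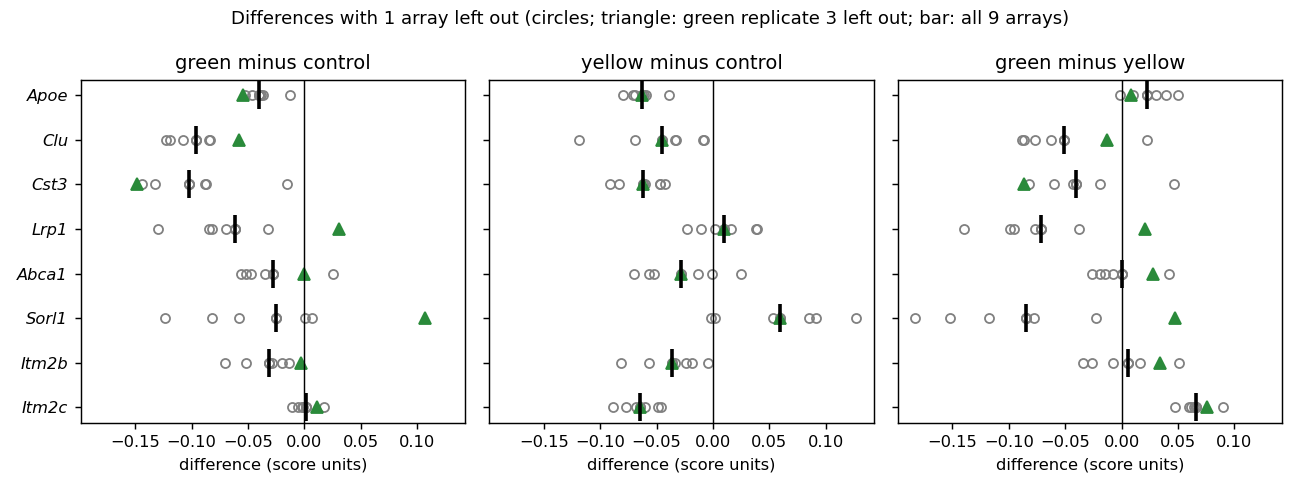
The same differences (horizontal axis, score units) with each array left out in turn as circles, green soybean replicate 3 left out as a triangle, and all 9 arrays as a bar. For Lrp1 and Sorl1 the triangle lies on the other side of 0 from the bar in both comparisons with green soybean.

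Among the 28 pairs of members, Apoe and Cst3, both secreted and both expressed by glia, followed each other most closely over the 9 arrays. Pearson's r was 0.801 (exact permutation p = 0.00833, adjusted over 28 pairs 0.233) and Spearman's rho 0.917 (exact permutation p = 0.00131, adjusted 0.0367). Arrays with a low Cst3 score, green soybean replicate 1 and yellow soybean replicate 2, were the 2 lowest for Apoe, and control replicates 2 and 3 were the highest for both. Without yellow soybean replicate 2 and green soybean replicate 1, the arrays farthest from the Apoe median, r was 0.801, and on deviations from the diet means it was 0.866.

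The level of bright probe sets in general also differed between arrays. The mean score of the 100 brightest other probe sets was 2.44 to 2.48 on control replicate 1, yellow soybean replicate 2 and green soybean replicate 1, and 2.62 to 2.63 on the other 6 arrays. Of those 3 arrays, yellow soybean replicate 2 and green soybean replicate 1 were the lowest for Apoe, while control replicate 1 lay among the other arrays. Over the 9 arrays the mean of the 100 brightest had r = 0.809 and rho = 0.683 with Cst3 (unadjusted exact permutation p = 0.00494 and 0.0503). With Apoe it had r = 0.695 and rho = 0.550 (unadjusted exact permutation p = 0.0413 and 0.133). The 6 arrays with the higher mean were picked for this pair with its scores known, so their values are a description. Within them Apoe and Cst3 had r = 0.965 and rho = 0.943, and the other 3 arrays were too few to give a value. After quantile normalization, which equalizes the distribution of scores between arrays, r over the 9 arrays was 0.403 and rho 0.420 (exact permutation p = 0.281 and 0.260). With the mean of the 100 brightest probe sets subtracted, r was 0.381 and rho 0.517 (exact permutation p = 0.310 and 0.162), and r was 0.948 without the 2 arrays farthest from the median. The relation over all 9 arrays did not pass under either of these 2 adjustments. With array medians aligned instead, r was 0.884 and rho 0.933 (unadjusted exact permutation p = 6.89e-05 and 0.00075), so the result depended on how array level was handled.

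**Figure D4:**
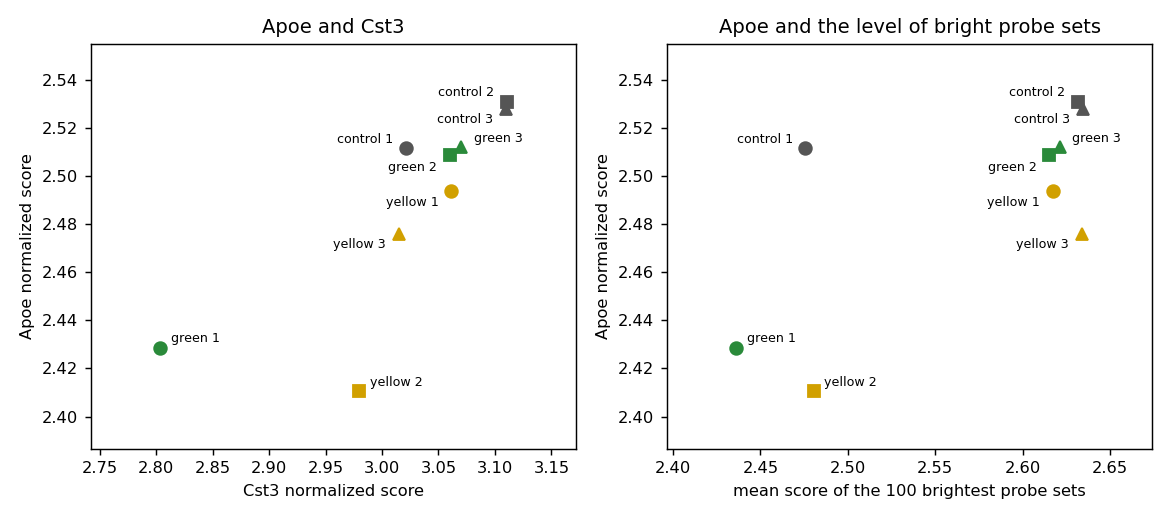
Apoe score (vertical axes) against the Cst3 score (left) and against the mean score of the 100 brightest other probe sets (right), 1 point per array, coloured by diet. Control replicate 1, yellow replicate 2 and green replicate 1 lie at 2.44 to 2.48 on the right and the other 6 arrays at 2.62 to 2.63.

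The next closest pair was Clu and Lrp1, with r = 0.727 and rho = 0.650 (exact permutation p = 0.0223 and 0.0666, adjusted 0.313 and 0.621). It fell to 0.409 without yellow soybean replicate 1 and green soybean replicate 3, and so rested on those arrays. Sorl1 and Itm2b had r = 0.639 and rho = 0.650 (exact permutation p = 0.0607 and 0.0666, adjusted 0.566 and 0.621), with r = 0.832 without green soybean replicate 3 and control replicate 1. Lrp1 and Sorl1, at r = 0.618 and rho = 0.400 (exact permutation p = 0.0873 and 0.291), had r = -0.131 without green soybean replicate 3. The 2 BRICHOS genes Itm2b and Itm2c had r = 0.454 and rho = 0.317 (exact permutation p = 0.229 and 0.410).

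The genes whose scores ran most like a member's over the 9 arrays, out of 16428, were Akr1c18, Suv39h2 and Snap91 for Apoe (r = 0.858, 0.849 and 0.846) and Kdm6b, Kmt2e and Dzip1 for Clu (0.908, 0.904 and 0.902). For Sorl1 they were Mmd2, Dnajc5 and Slc7a14 (0.986, 0.973 and 0.969), and 112 genes exceeded r = 0.9 with Sorl1, against 0 for Apoe and 4 for Clu. These values describe 9 arrays that share their normalization, and include green soybean replicate 3, the lowest array for Sorl1.

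The authors' deposited table held a single p-value for each probe set, and no source used here names the test or the groups behind it. In the authors' deposited table the values were 0.00327 for Sorl1, 0.00420 for Clu, 0.0119 for Itm2b, 0.0189 for Lrp1, 0.0376 for Apoe, 0.0869 for Itm2c, 0.575 for Cst3 and 0.751 for Abca1. Of these 8 values 5 were below 0.05, as were 19.2% of the values for probe sets tested here in the authors' deposited table. The probe sets that the authors centred on their controls had values up to 0.00497 in the authors' deposited table and the others values from 0.00501, so that the centring of Clu and Sorl1 goes with their low values. By the limma F-test over the 3 diets the unadjusted p-values of the 8 genes were between 0.321 (Itm2c) and 0.874 (Abca1), with 0.724 for Sorl1 and 0.387 for Clu, and 7.06% of all probe sets were below 0.05. The deposited and fitted values thus ordered the members differently, with Sorl1, the smallest in the authors' deposited table, among the larger ones in the fit.

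Of 89 further genes of amyloid beta carriage, lipoprotein uptake, lipid export, receptor sorting, clathrin endocytosis and the BRICHOS family, 79 were measured. None passed limma's test in any comparison. The counts of higher genes below stand beside 65.0% of all probe sets higher with green soybean than in controls, 60.4% with yellow soybean than in controls and 58.0% with green than with yellow. With green soybean 42 were higher and 37 lower than control (median 0.0110), with yellow soybean 45 and 34 (0.00836), and between green and yellow 43 and 36 (0.0111). At an unadjusted p below 0.05 there were 2 of 79 in each comparison, 2.53%, against 9.72%, 3.04% and 7.10% of all probe sets.

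Among 11 measured extracellular chaperones and apolipoproteins, 8 were higher with green soybean than in controls. Ptgds, a prostaglandin D synthase that also carries lipophilic ligands and binds amyloid beta, scored 0.657, 0.401 and 0.650 with green soybean, -0.0171, -0.0993 and 0.116 in controls and -0.110, -0.0490 and 0.679 with yellow soybean. The green arrays lay above all controls, and yellow soybean replicate 3 reached the green range while the other yellow arrays lay with the controls (green difference 0.569 ± 0.166, limma adjusted p = 0.438). Leptomeningeal markers, from a tissue known for Ptgds, ran from 0.00485 to 0.235 in their mean over 10 genes with green soybean. They ran from 0.0289 to 0.0842 with yellow soybean and from -0.108 to 0.0985 in controls. The part of these markers in the Ptgds scores was not tested. Apoc1, a small apolipoprotein encoded beside Apoe, was below all controls on the yellow arrays, at -0.273, -0.258 and -0.256 against -0.0457, -0.218 and -0.108 (difference -0.138 ± 0.0559, limma adjusted p = 1.00). Its scores were low on every array, below the array medians of uncentred scores at 0.156 to 0.216.

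Among 12 measured lipoprotein receptors and their partners, 6 were higher and 6 lower with green soybean. Ager, the receptor for advanced glycation end products that binds amyloid beta at the blood-brain barrier, scored 0.0834, 0.0797 and 0.180 with green soybean against 0.0455, -0.0385 and -0.0312 in controls and 0.00287, -0.0101 and 0.00800 with yellow soybean. Its green arrays lay above the other 6 (difference from control 0.123 ± 0.0509, limma adjusted p = 0.497). Lrp1b, a large relative of Lrp1, differed by -0.112 ± 0.0531 (limma adjusted p = 0.527), its green arrays lying below the controls.

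Among 15 lipid transporters and nuclear receptors of lipid export, 8 were higher and 7 lower with green soybean, and Rxra, the retinoid X receptor partner of the liver X receptors, had green arrays at 0.395, 0.273 and 0.245, above the yellow ones at 0.206, 0.155 and 0.243 (difference 0.103 ± 0.0551, limma adjusted p = 0.743). Without green soybean replicate 1 the Rxra difference was 0.0574. Rxrg, a related receptor, differed from control by 0.0726 with yellow soybean and by 0.105 with green, the latter becoming 0.0168 without green soybean replicate 3. Without control replicate 2 the yellow difference was 0.0449. Of 15 VPS10 receptors and retromer genes, 12 were higher with yellow soybean and 7 with green. Vps26b, a retromer subunit, scored 1.463, 1.377 and 1.481 with yellow soybean, above the controls at 1.352, 1.321 and 1.310 (difference 0.113 ± 0.0501, limma adjusted p = 1.00). Gga2, a sorting adaptor, differed by 0.119 with green soybean, or by 0.0542 without green soybean replicate 3.

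Of 22 clathrin endocytosis genes, 9 were higher and 13 lower with green soybean. Dab2, an adaptor for lipoprotein receptors, differed by 0.144 ± 0.0694 from control (limma adjusted p = 0.538), with green soybean replicate 2 at 0.0660 inside the control range. The Dab2 difference was 0.223 without that array. Rab5b, a GTPase of early endosomes, scored 1.399, 1.378 and 1.389 with yellow soybean and 1.363, 1.322 and 1.016 with green soybean, against 1.300, 1.219 and 1.300 in controls. The yellow arrays lay above both other diets, and green soybean replicate 3 lay lowest (green minus yellow -0.155 ± 0.0792, limma adjusted p = 0.731, and -0.0462 without that array). The 4 measured BRICHOS relatives were all higher with green soybean than in controls, Cnmd by 0.0952 and Gkn1 by 0.0505. The diet means of Cnmd, Gkn1 and Sftpc were low, from -0.584 to -0.194, where the array medians of uncentred scores were 0.156 to 0.216. Whether these scores stand above background was not tested. Cnmd differed by 0.0423 without green soybean replicate 3 and by 0.161 without replicate 2, and Gkn1 by 0.128 and -0.0390 in the same order.

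**Figure D5:**
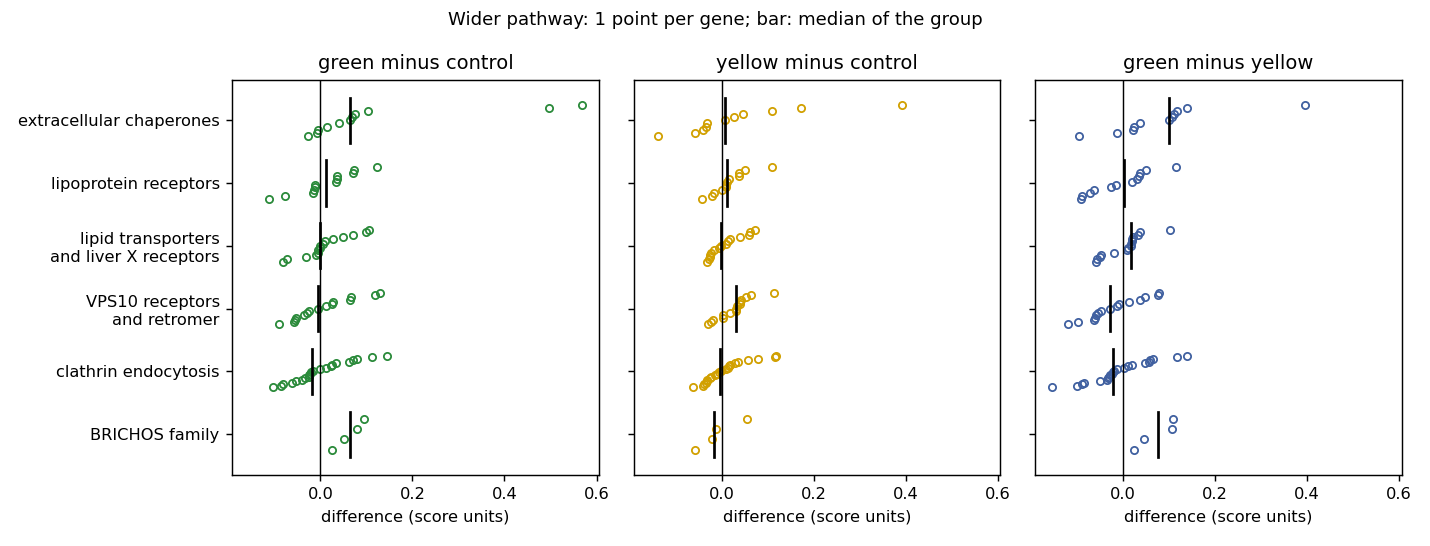
Differences (horizontal axis, score units) of 79 further genes by group, 1 circle per gene and the group's median as a bar, in the 3 comparisons. Ptgds lies farthest to the right for green minus control, at 0.569.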

How the data were processed

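RNA from hippocampus was measured on 9 one-colour arrays, 3 per diet. Per the labels' protocols, RNA was isolated with RNeasy columns and labelled with biotin using Affymetrix reagents. The authors deposited a normalized score per probe set and array, made with the SuperNORM data service per the labels, and a table with 1 deposited p-value per probe set. Another 18 value columns match no label and were not used. The number of arrays limits the precision.

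Of 34760 probe sets, 21640 carried 1 gene symbol in the platform annotation, 1321 several and 11799 none. Left out were 6573 probe sets with identifiers under the lowest annotated identifier and 6228 with an exact 0 on any array, leaving 21959. Of these, 1345 had a control mean of 0 within 1e-06, Clu and Sorl1 included. Symbols were checked by gene ID for 17759 of 17824 probe sets.

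limma 3.58.1 in R 4.3.3 (lmFit, eBayes, no intensity trend) was fitted to the scores of all 9 arrays, with 2-sided tests, Benjamini-Hochberg adjustment over all 21959 probe sets and calls at an adjusted p below 0.05. Correlations had exact permutation tests. The fit was tested on simulated data. The members, the wider list and the tests were chosen with earlier results of these data known. Named genes are the members, the 2 genes of each of 6 wider groups with the smallest p, and the 3 genes most like Apoe, Clu and Sorl1. Alternatives were other normalizations, filters, weights, a replicate block, fewer diets and leaving out each array. For a gene with several probe sets a mean was planned, but each member had 1.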

Additional observations from a re-analysis of the deposited data

How the results depend on the processing

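No member was called under any of 7 other settings or without any of 9 arrays, the smallest limma adjusted p being 0.461, and no gene of the wider list was called either. Some member differences exceeded their SE, such as Cst3 green minus control (-0.103 ± 0.0709). Others lay below it, such as Abca1 green minus yellow (0.000367 ± 0.0616). As none was called, no sign was established by the test. Leaving out single arrays changed the sign of the differences whose ranges are given below and not of the other member differences. The opposite sign appeared in 10 of 162 member differences under other settings and in 25 of 216 without an array. Many of these differences could not change. The filters, the replicate block and the fit with fewer diets left each estimate as it was. Leaving out an array of the diet not compared did so too, so both shares understate how easily signs changed. With array medians aligned, the differences with the opposite sign were Itm2c green minus control (-0.0487), Lrp1 yellow minus control (-0.0188), and Abca1 (-0.0208) and Itm2b (-0.0157) green minus yellow. With quantile normalization they were Itm2c (-0.0135) green minus control, Lrp1 (-0.00796) yellow minus control and Cst3 (0.0359) green minus yellow. With array weights, which gave green soybean replicate 3 a weight of 0.304, they were Sorl1 (0.0656) and Itm2b (0.00665) green minus control and Sorl1 (0.0271) green minus yellow. The cause was not tested.

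Without single arrays, green minus control ranged from -0.0566 to 0.0254 for Abca1, -0.0111 to 0.0174 for Itm2c, -0.130 to 0.0308 for Lrp1 and -0.123 to 0.107 for Sorl1. Yellow minus control ranged from -0.0696 to 0.0251 for Abca1, -0.0232 to 0.0394 for Lrp1 and -0.00198 to 0.127 for Sorl1. Green minus yellow ranged from -0.0265 to 0.0420 for Abca1, -0.00169 to 0.0502 for Apoe, -0.0882 to 0.0228 for Clu, -0.0868 to 0.0465 for Cst3, -0.0342 to 0.0506 for Itm2b, -0.140 to 0.0207 for Lrp1 and -0.183 to 0.0474 for Sorl1. Of the named genes of the wider list, whose leave-one-out values were added after seeing the data, Gkn1 alone changed sign in a printed difference, from -0.0390 to 0.128 for green minus control.

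The replicate numbers do not pair arrays by any label, and deviations of same-numbered arrays correlated at -0.0817 to 0.165, the same number being the best match in 6 of 18 cases. With a replicate block 0 members were called, and the limma adjusted p of Cst3 for green soybean was 0.640. Brighter probe sets alone (10315) kept 6 members and dropped the centred Clu and Sorl1. Over all probe sets, keeping exact zeros as values called 2, 17 and 13 probe sets in the 3 comparisons, none a member. Array weights called 1 for green minus control. Leaving out green soybean replicate 3 called 1 for green minus control and 1 for green minus yellow. The correlation of Apoe and Cst3, whose alternatives were chosen after seeing the data, stayed between 0.773 and 0.944 without any single array and was 0.884 with array medians aligned.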

Other observations

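Markers of the cell types that could supply these transcripts were compared by their mean score per array. The 10 astrocyte markers, a main source of Apoe, Clu and Cst3 in brain, averaged 1.30 to 1.32 in controls, 1.25 to 1.33 with yellow and 1.24 to 1.35 with green soybean, with 4 of 10 higher with green soybean than in controls. The 9 measured microglia markers averaged 0.325 to 0.409 in controls, 0.398 to 0.433 with yellow and 0.351 to 0.444 with green soybean, and 7 of 9 were higher with either extract, where 65.0% of all probe sets were higher with green and 60.4% with yellow soybean than in controls. Endothelial markers, from the cells that carry amyloid beta into blood, averaged 0.0693 to 0.177 in controls and 0.0101 to 0.218 with green soybean. Neuronal markers averaged 1.45 to 1.54 in controls and 1.42 to 1.51 with green soybean, with 2 of 10 higher.

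Choroid plexus markers varied most within diets, from -0.144 to 0.254 in controls, -0.0510 to 0.251 with yellow and 0.00683 to 0.518 with green soybean, and 7 of 8 had a higher mean with green soybean than in controls. Oligodendrocyte markers averaged 0.913 to 1.14 in controls and 0.816 to 1.11 with green soybean. In these lists limma called 0 genes in any comparison at an adjusted p below 0.05, as it called 0.00% of all probe sets. The part of these lists in the members' scores was not tested.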
